A study of Mus musculus with 12 samples.

Results

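Cfap54 encodes a protein of motile cilia, and its signal in the mouse striatum was high in the wild-type mice of 18 months and in no other group. It was set beside 9 other genes of motile cilia, Cfap69, Foxj1, Rsph1, Tekt1, Dynlrb2, Ak7, Spag16, Spef2 and Ccdc153, to see whether they shared that rise. The 10 genes were read by 18 probe sets that the array annotation pairs with 1 of them alone, of 45037 probe sets measured, and each gene was described at its brightest probe set, as were 18193 genes in all. Cfap54 was chosen by its measured signal in the 18-month wild-type group, so its differences from that group are a description and carry no test. The other 9 were taken for their role in cilia.

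Total RNA from the striatum was read on Affymetrix whole-genome arrays in 12 mice, with 1 array for each mouse and 4 groups of 3. All mice were labelled C57BL/6. The controls were wild-type mice aged 100 to 103 days (wt_3m, 1 female and 2 males) or 596 to 604 days (wt_18m, 2 females and 1 male). The others were Q92 mice, a model of Huntington's disease that is homozygous for a knock-in (HdhQ92/Q92) of 92 CAG repeats, taken from the human gene, into the mouse huntingtin gene, aged 100 to 103 days (Q92_3m) or 567 to 596 days (Q92_18m), each group with 2 females and 1 male. Each mouse had its own animal number, which is used in its name here (wt_18m_9 is wild-type mouse 9 at 18 months). Values are log2 signals after RMA, so a difference of 1 is a doubling, and levels of different probe sets cannot be compared.

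Motile cilia beat. Their core, the axoneme, has outer doublet microtubules and a central pair, which radial spokes join, and dynein motors on the doublets drive the stroke. In the brain they are carried by the ependymal cells that line the ventricles, which border the striatum, and by the choroid plexus epithelium, so a striatal dissection may take in some of either. Cfap54 is a central pair protein, and mice that lack it develop hydrocephalus and male infertility. In bulk tissue, fewer cells of a type and less RNA per cell cannot be told apart.

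The defining markers of the labelled tissue were present, with log2 signals of 9.22 to 10.65 for Drd1 and 10.19 to 11.81 for Penk. The 9 measured striatal projection neuron markers had a median log2 difference of -0.96 between Q92_18m and wt_18m, and 1 of them, Penk, passed. Of the 10 ependymal markers outside the gene set (among them Tmem212, Mia and Cd24a), 0 passed in any comparison of groups. At most 0.264% of all genes passed in any of these comparisons, so the 0 is not read as an absence of change. The estimates were wide, with Cd24a at -0.64 (SE 0.37) between the wild-type ages. Calml4 stood at 0.96 (SE 0.88) for Q92 against wild type at 3 months. Both the ependymal and the choroid plexus markers varied between mice. The summed level of the 14 measured choroid plexus markers, given as the mean log2 distance from the 12-mouse average, was 1.88 in mouse Q92_3m_439 and 1.65 in mouse wt_18m_12, and lay between -0.74 and 0.42 in the other 10. Calml4, 1 of the 10 ependymal markers, was also highest in these 2 mice (7.25 and 6.91, against 3.56 to 5.30 in the other 10). The ependymal marker mean used below therefore includes a gene that varied with the choroid plexus markers. Among the choroid plexus markers Ttr, which encodes transthyretin, ran from 8.63 in wt_18m_17 to 13.76 in wt_18m_12. The part of this RNA in the results was not tested beyond the covariate and the leave-outs given with them. Of the 7 astrocyte markers, Gfap alone passed, higher in wt_18m than in wt_3m by 1.86 (SE 0.26, limma adjusted p = 0.0304), a call kept in 8 of 23 alternative settings and in 2 of 12 that left out 1 mouse (adjusted p 0.0105 to 0.122). Neither an array batch nor a scan date is given in the labels.

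Cfap54 separated wt_18m from the other groups. Its log2 signal was 7.22, 7.36 and 6.45 in mice 9, 12 and 17 of wt_18m. It was 5.35, 4.62 and 5.14 in wt_3m, 5.39, 4.83 and 5.14 in Q92_3m, and 4.78, 5.20 and 5.12 in Q92_18m. The 9 mice outside wt_18m thus spanned 4.62 to 5.39, and the lowest wt_18m mouse lay more than 1 log2 unit above them. The group means were 5.04 ± 0.37 (wt_3m), 5.12 ± 0.28 (Q92_3m), 7.01 ± 0.49 (wt_18m) and 5.03 ± 0.22 (Q92_18m; SD, n = 3 each), so the other 3 groups, at either age and either genotype, did not differ beyond their spread. In wild-type mice the signal was higher at 18 than at 3 months by 1.97 (SE 0.24, 95% interval 1.45 to 2.50), or 3.93-fold. At 18 months it was lower in Q92 than in wild type by a log2 difference of -1.98 (95% interval -2.51 to -1.46), or 3.95-fold. Both differences rest on the values that chose the gene.

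The contrasts that leave out wt_18m can be tested. At 3 months Cfap54 differed between Q92 and wild type by 0.08 (SE 0.24, 95% interval -0.44 to 0.61, limma adjusted p = 1.00), and in Q92 mice it differed between 18 and 3 months by -0.09 (SE 0.24, 95% interval -0.62 to 0.44, adjusted p = 0.937). Neither passed. The second Cfap54 probe set was dim, between 2.71 and 3.13 over the 12 mice, and differed by 0.10 between the wild-type ages (SE 0.11, 95% interval -0.13 to 0.33). The rise was therefore read by 1 of the 2 probe sets, and the mean of both gave 1.04. In RefSeq (GRCm38.p6) Cfap54 lies at chr10:92775609-93083487, and where in the gene either probe set lies was not analysed here.

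**Figure D1:**
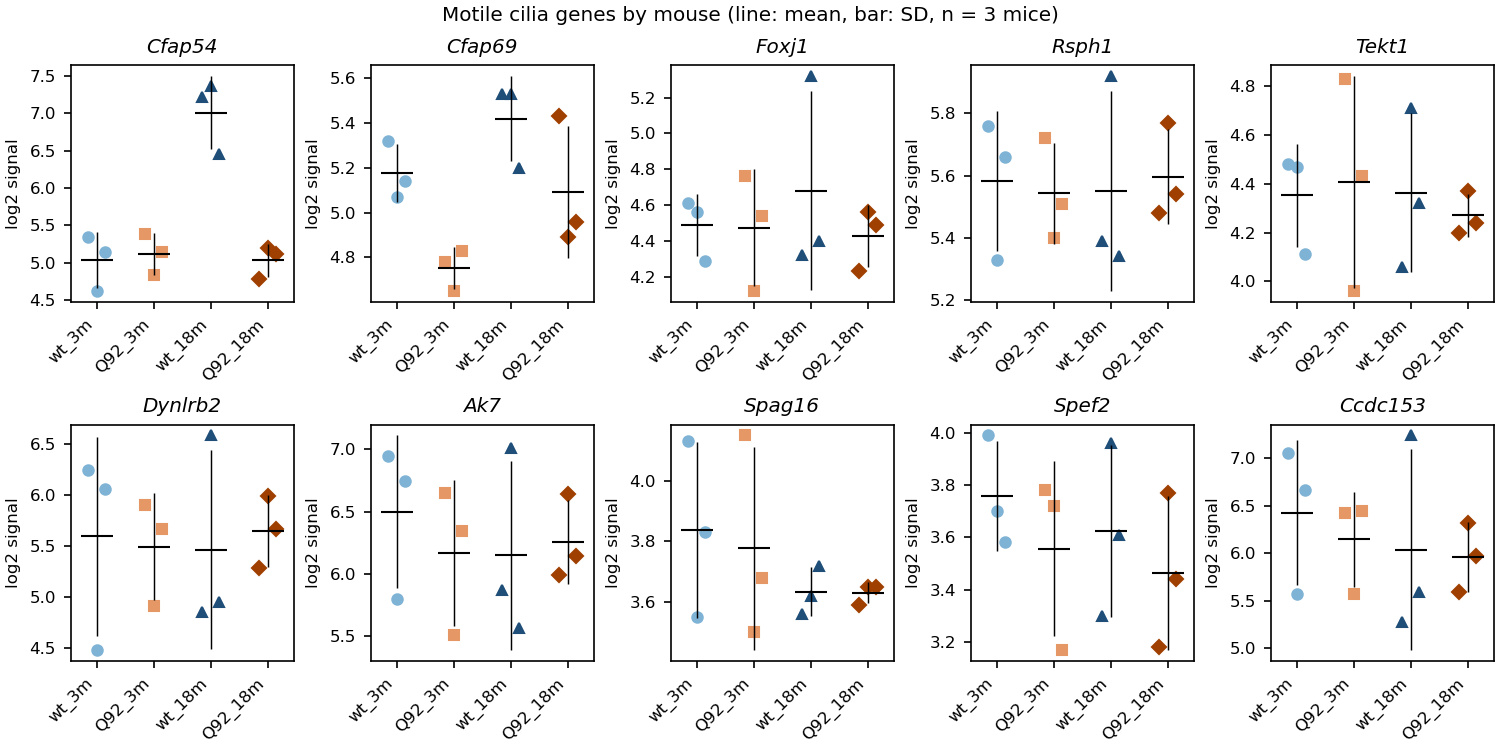
Log2 signal of each of the 10 genes at its brightest probe set (vertical axes, a separate scale for each gene) in the 12 mice by group (horizontal axis). Symbols are mice, horizontal lines are group means and vertical lines are SD (n = 3). Cfap54 is high in all 3 wt_18m mice, while for each of the other 9 genes at least 1 wt_18m mouse lies within the range of the other groups.

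Spag16 and Spef2, central pair genes among the members, did not show the rise of Cfap54, though both were dim. Spag16, a central pair protein, had log2 signals of 4.13, 3.55 and 3.83 in wt_3m, 4.15, 3.50 and 3.68 in Q92_3m, 3.56, 3.62 and 3.72 in wt_18m, and 3.59, 3.65 and 3.65 in Q92_18m. The 18-month mice sat inside the range of the 3-month mice, and the wild-type age difference was -0.20 (SE 0.16, limma adjusted p = 0.674). Spef2, a central pair protein needed for sperm flagella in mice, read 3.99, 3.70 and 3.58 in wt_3m, 3.78, 3.72 and 3.17 in Q92_3m, 3.30, 3.96 and 3.61 in wt_18m, and 3.18, 3.77 and 3.44 in Q92_18m. Its groups overlapped throughout, and its wild-type age difference was -0.13 (SE 0.21, adjusted p = 0.840). These 2 genes were the only members below the 40th percentile of mean signal among all probe sets (percentiles 30.1 and 27.6), and the other 8 passed that filter. Their further probe sets (3 for Spag16 and 2 for Spef2) did not pass in the wild-type age contrast either, with differences from -0.21 to 0.10.

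Cfap69, which mouse sperm need for a formed flagellum, read 5.32, 5.07 and 5.14 in wt_3m, 4.78, 4.65 and 4.83 in Q92_3m, 5.53, 5.53 and 5.20 in wt_18m, and 5.43, 4.89 and 4.96 in Q92_18m. Mice wt_18m_12 and wt_18m_9 held the highest values, as for Cfap54, but the third wt_18m mouse lay below wt_3m_436 and Q92_18m_11. The wild-type age difference was 0.25 (SE 0.14, 95% interval -0.07 to 0.56, limma adjusted p = 0.572). At 3 months all Q92 mice lay below all wild-type mice, by -0.42 (SE 0.14, adjusted p = 1.00), where 6.64% of all 18193 genes had groups without overlap. The 2 dimmer probe sets differed there by -0.03 and 0.22. In Q92 mice, all values at 18 months lay above those at 3 months, by 0.34 (SE 0.14, adjusted p = 0.426), against 17.5% of all genes without overlap. The 2 dimmer probe sets were also higher there without overlap, by 0.38 and 0.21, and neither passed (limma adjusted p = 0.386 and 0.576). The 2 dimmer Cfap69 probe sets differed by 0.11 each between the wild-type ages. At 18 months they were higher in Q92 than in wild type (0.24 and 0.31) where the brightest was lower (-0.33). The probe sets of this gene thus disagreed on the genotype difference at both ages, and none passed at 18 months (lowest adjusted p 0.509).

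Foxj1, the forkhead transcription factor that drives formation of motile cilia, read 4.61, 4.56 and 4.29 in wt_3m, 4.76, 4.12 and 4.54 in Q92_3m, 4.32, 5.32 and 4.40 in wt_18m, and 4.23, 4.56 and 4.49 in Q92_18m. Mouse wt_18m_12 stood above all others, and the other 2 wt_18m mice lay within the range of wt_3m. The wild-type age difference was 0.20 (SE 0.24, 95% interval -0.31 to 0.71, limma adjusted p = 0.790). Tekt1, a filament protein of the doublet microtubules, was highest in Q92_3m_439 (4.83) and wt_18m_12 (4.71), the mice with the highest choroid plexus markers, and lay between 3.96 and 4.48 in the other 10. Its wild-type age difference was 0.01 (SE 0.21, adjusted p = 0.989). Rsph1, a radial spoke head protein, spanned 5.33 to 5.76 in wt_3m, 5.40 to 5.72 in Q92_3m, 5.34 to 5.92 in wt_18m and 5.48 to 5.77 in Q92_18m. Its groups overlapped almost fully, with a wild-type age difference of -0.03 (SE 0.16, 95% interval -0.39 to 0.32, adjusted p = 0.958).

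Dynlrb2, a roadblock-type light chain of dynein, Ak7, an adenylate kinase of motile cilia, and Ccdc153, whose transcript marks ependymal cells, varied most between mice. Dynlrb2 read 6.25, 4.48 and 6.06 in wt_3m, 5.91, 4.91 and 5.67 in Q92_3m, 4.86, 6.59 and 4.95 in wt_18m, and 5.29, 5.99 and 5.67 in Q92_18m. Ccdc153 read 7.05, 5.57 and 6.66 in wt_3m, 6.42, 5.57 and 6.44 in Q92_3m, 5.27, 7.24 and 5.59 in wt_18m, and 5.59, 6.32 and 5.97 in Q92_18m. Ak7 read 6.95, 5.80 and 6.75 in wt_3m, 6.65, 5.51 and 6.34 in Q92_3m, 5.87, 7.01 and 5.56 in wt_18m, and 5.99, 6.64 and 6.14 in Q92_18m. In all 3 genes mouse wt_18m_12 was the highest of the 12, wt_3m_436 came next, and the other wt_18m mice were among the lowest 4, although Cfap54 was high in both. Their SD within groups was 0.76, 0.60 and 0.72 for Dynlrb2, Ak7 and Ccdc153, against a median of 0.15 over all genes, and these SDs ranked at percentiles 99.6, 99.2 and 99.5. The wild-type age differences were -0.13 (SE 0.50) for Dynlrb2, -0.36 (SE 0.40) for Ak7 and -0.39 (SE 0.48) for Ccdc153, with limma adjusted p of 0.943, 0.771 and 0.794. Dynlrb1, the close relative of Dynlrb2 that is used outside cilia, stayed between 10.49 and 11.01 in all mice.

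The promoters of these 3 genes, which varied together over the mice, are shown because they carry or lack the RFX motif of ciliary genes. RFX transcription factors and Foxj1 act together on many ciliary genes. A search of both strands for the RFX letters GTTGCC (reverse GGCAAC) and the forkhead letters TGTTTAC (reverse GTAAACA), motifs that do not overlap each other in these sequences, marked the matches in capitals. Each sequence holds 250 bases before to 50 bases after a start listed in the RefSeq promoter table (GRCm38.p6), all on the plus strand, at chr8:116504765-116505064 for Dynlrb2, chr9:44240427-44240726 for Ccdc153 and chr12:105705732-105706031 for Ak7.
Dynlrb2: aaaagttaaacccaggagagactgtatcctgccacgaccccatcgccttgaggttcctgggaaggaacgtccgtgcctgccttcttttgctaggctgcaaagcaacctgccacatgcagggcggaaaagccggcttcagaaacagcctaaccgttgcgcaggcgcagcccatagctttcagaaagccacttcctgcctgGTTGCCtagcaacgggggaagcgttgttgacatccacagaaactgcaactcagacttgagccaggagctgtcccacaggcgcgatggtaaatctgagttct
Ccdc153: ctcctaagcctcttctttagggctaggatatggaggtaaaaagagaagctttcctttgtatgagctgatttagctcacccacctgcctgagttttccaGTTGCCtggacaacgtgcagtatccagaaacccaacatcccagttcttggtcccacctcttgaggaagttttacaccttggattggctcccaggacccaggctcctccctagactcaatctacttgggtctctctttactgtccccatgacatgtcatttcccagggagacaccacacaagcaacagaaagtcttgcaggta
Ak7: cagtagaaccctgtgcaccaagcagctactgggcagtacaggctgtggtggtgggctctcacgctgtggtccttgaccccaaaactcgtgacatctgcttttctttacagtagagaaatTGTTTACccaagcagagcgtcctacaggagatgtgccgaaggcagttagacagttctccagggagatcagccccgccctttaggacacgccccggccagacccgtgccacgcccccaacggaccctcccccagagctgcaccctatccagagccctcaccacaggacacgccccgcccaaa
Dynlrb2 and Ccdc153 held the RFX letters once each and Ak7 held the forkhead letters once. The start used for Ak7 lies inside the RefSeq span of the gene, which begins at chr12:105703858, and the sequence before that first base was not analysed here. RefSeq promoters were at hand for 7 of the 10 genes (8 promoters, with 2 for Tekt1), and Cfap54, Foxj1 and Rsph1 had none. The RFX letters were in 5 of the 8, those of Ccdc153, Dynlrb2, Spag16, Spef2 and 1 of Tekt1, and in 12.4% of 32544 mouse promoters of the same length. The forkhead letters were in 1 of the 8 and in 3.66% of all. A match describes the letters and is not a measured binding site.

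Over the 9 genes other than Cfap54, 0 passed in the wild-type age contrast, against 0.0715% of all genes (13 of 18193). Their log2 differences ran from -0.39 to 0.25, with 3 above 0 and 6 below, a median of -0.13 and a median of -0.01 over all genes. No adjusted p was below 0.572, 0 of the 9 passed an unadjusted p of 0.05, and 0 had groups that did not overlap, where 18.6% of all genes did. The upper ends of their 95% intervals lay between 0.15 and 0.95, and the difference of Cfap54 was 1.97. That value chose Cfap54, so setting the intervals beside it is a description and no test. For Dynlrb2, Ak7 and Ccdc153 the intervals reached 0.95, 0.51 and 0.64, so rises up to those sizes lie within what 3 mice a group allow. Without mouse wt_18m_12, where most of the 9 were high, their median was -0.22, and the difference of Cfap54 was 1.77 or more whichever mouse was left out.

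The genotype made no difference that passed for these 9 genes at either age. At 18 months 0 of 9 passed (0.0770% of all genes did), with differences from -0.33 to 0.18, a median of -0.08 and no adjusted p below 0.613, and 0 of 9 had groups without overlap, against 14.0% of all genes. At 3 months 0 of 9 passed (0.0165% of all), with a median of -0.10 and all but 1 lower in Q92. In Q92 mice between 3 and 18 months 0 of 9 passed (0.264% of all), with a median of -0.05. The test of whether the genotype difference itself moved between the ages passed for 0 of 9 and for 0 of all genes, and its median over the 9 was 0.08. At an unadjusted p of 0.05 the counts over the 9 were 1, 1, 1 and 0, and the 1 was Cfap69 each time. The share of all genes at that unadjusted threshold was not taken. Neither these counts nor the 0 of 9 in the wild-type age contrast is therefore read as high or low.

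**Figure D2:**
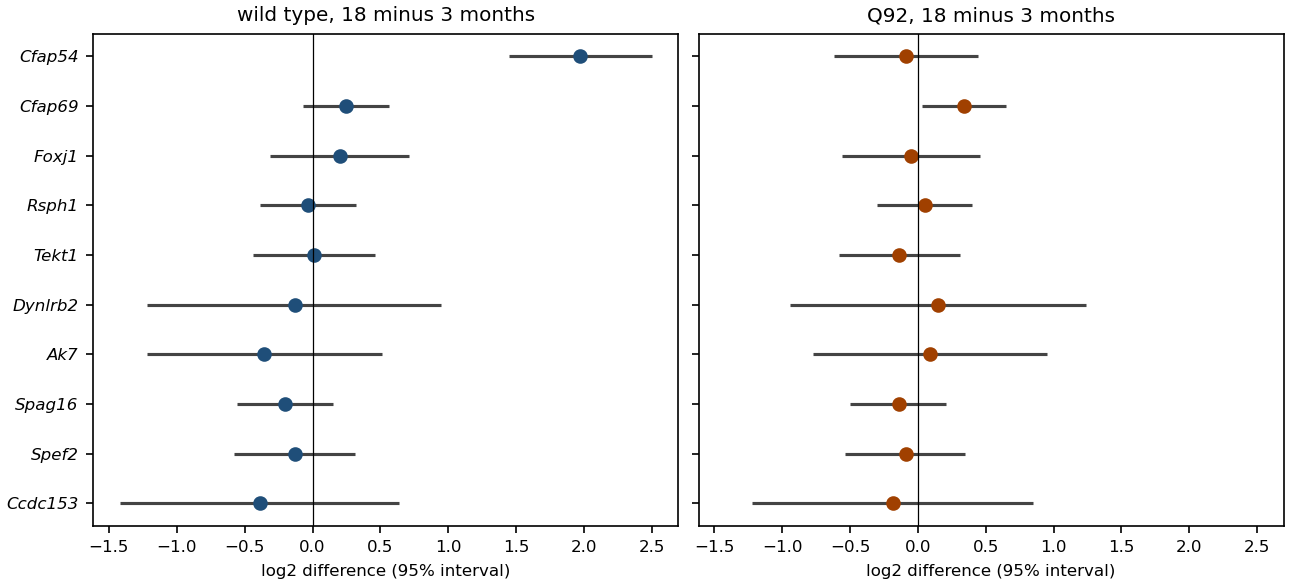
Difference in log2 signal between 18 and 3 months in wild-type mice (left) and Q92 mice (right) for the 10 genes. Points are limma estimates and bars their 95% intervals. In wild type Cfap54 stands at 1.97, and the intervals of the other 9 genes end at 0.95 or below.

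The rest of the cilium was measured by 90 further genes in 4 lists. Of these 90, 0 passed in any of the 5 comparisons, where at most 0.264% of all genes did. In the wild-type age contrast 3 had an unadjusted p under 0.05, and the share of all genes at that threshold was not taken. There the median difference was -0.05 and the range -0.66 to 0.49, and 10 of the 90 had groups without overlap, against 18.6% of all genes. Of the 27 measured genes for dynein arms and their assembly, 6 had a higher and 21 a lower mean at 18 months. The largest wild-type age difference of this list was that of Dnah6, a dynein heavy chain, at -0.66 (SE 0.37, limma adjusted p = 0.547). Of 30 genes for radial spokes, the central pair and doublet proteins, 11 were higher and 19 lower in mean, and Tekt4, another tektin, differed most (-0.42, SE 0.18, adjusted p = 0.441). Of 25 genes of intraflagellar transport, which builds the cilium, 11 were higher and 14 lower, with Kif3a, a subunit of the kinesin-2 motor, at -0.33 (SE 0.16, adjusted p = 0.499). Of 8 regulators of multiciliated cells, 3 were higher and 5 lower. The next genes by size in each list did not pass either, with Dnah9 at -0.34, Ccdc39 at 0.29, Mns1 at 0.32, Cfap65 at 0.30, Ift46 at 0.28, Ttc30b at 0.24, Foxn4 at -0.24 and Cdc20b at -0.21. The lowest adjusted p of the spoke, central pair and doublet list, 0.325, was that of Nme5, a radial spoke protein named after its values were seen, which was higher at 18 months by 0.30 (SE 0.09) with no overlap of the wild-type groups. Dnah1, a dynein heavy chain also named after its values were seen, differed more in other contrasts. It was lower in Q92 than in wild type at 18 months by -0.85 (SE 0.18, limma adjusted p = 0.165). In Q92 mice it was lower at 18 than at 3 months by -0.79 (SE 0.18, adjusted p = 0.127). Both had groups without overlap, as 14.0% and 17.5% of all genes did there, and neither passed.

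Among those regulators Ccno, which acts in the amplification of centrioles in multiciliated cells, had the largest wild-type age difference of its list. It read 4.96, 5.23 and 5.24 in wt_3m, 5.13, 5.70 and 4.97 in Q92_3m, 5.92, 5.33 and 5.65 in wt_18m, and 4.56, 4.77 and 4.23 in Q92_18m. The wt_18m mice lay above all wt_3m and all Q92_18m mice but not above Q92_3m_440. Ccno was lower in Q92 than in wild type at 18 months by -1.11 (SE 0.20, limma adjusted p = 0.0879) and higher at 18 than at 3 months in wild type by 0.49 (SE 0.20, adjusted p = 0.438), and neither difference passed.

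Some of the members varied together from mouse to mouse. Of 45 pairs of members, the 36 without Cfap54 were correlated over 12 mice, and 34 of them had a positive Pearson r, with a median of 0.55. By permutation tests adjusted over the 45 pairs, 10 of the 36 passed by Pearson and 7 by both Pearson and Spearman. Of the 7, 6 joined Rsph1, Dynlrb2, Ak7 and Ccdc153 to each other. Rsph1 and Dynlrb2 had r = 0.96 and rho = 0.94 (two-sided permutation test, adjusted p = 0.00045 and 0.000675), and r was 0.95 without the 2 mice farthest from the median of Rsph1. Dynlrb2 and Ccdc153 had r = 0.93 and rho = 0.95, with r = 0.95 without 2 mice and r = 0.98 for deviations from the group means. The remaining pair was Foxj1 and Tekt1, with r = 0.84 and rho = 0.94 (adjusted p = 0.00212 and 0.00081) and r = 0.90 without 2 mice. Cfap69 stood apart, with r from -0.08 to 0.25 against the other 8. Neither Spag16 nor Spef2 had a pair that passed among the 36.

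Cfap54 itself took part in this variation in the 9 mice outside wt_18m. Over all 12 mice its values form 2 clusters, so no r with another member was taken across them. In the 9 mice, Cfap54 and Dynlrb2 had r = 0.92 and rho = 0.82 (exact permutation test, two-sided, n = 9, p = 0.000725 and 0.0108, adjusted 0.00408 and 0.0441), and r was 0.87 without the 2 farthest mice. Cfap54 and Rsph1 had r = 0.90 and rho = 0.87 (exact permutation, adjusted p = 0.00488 and 0.0225). Of the 9 pairs with Cfap54, 5 passed by Pearson and 4 by both measures, the latter with Dynlrb2, Rsph1, Ak7 and Spag16. With Ccdc153 r was 0.87 and rho 0.75 (exact permutation, adjusted p = 0.0127 and 0.0795).

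Markers of more than 1 cell type varied with the members, the ependymal markers that are not members among them. Relations of the 10 genes to 5 marker lists gave 50 tests. The mean of the 10 ependymal markers was related to Ccdc153 (r = 0.95, rho = 0.90), Rsph1 (r = 0.92, rho = 0.85), Dynlrb2 (r = 0.92, rho = 0.88) and Ak7 (r = 0.91, rho = 0.88) over 12 mice, each with a permutation p of 0.00162 for r after adjustment over the 50. Leaving out 2 mice gave r of 0.92, 0.91, 0.93 and 0.90. Foxj1 followed the ependymal markers (r = 0.82, rho = 0.76) and, by Pearson only, the choroid plexus markers (r = 0.78, rho = 0.64, adjusted permutation p = 0.0221 and 0.0674). Rsph1 followed the choroid plexus markers by both measures (r = 0.73, rho = 0.86, adjusted permutation p = 0.0221 and 0.00812). The markers of subventricular neuroblasts and proliferation were also related to Ccdc153 (r = 0.85, rho = 0.78, adjusted permutation p = 0.0037 and 0.0228), Ak7 (r = 0.80, rho = 0.78), Rsph1 (r = 0.74, rho = 0.73) and Dynlrb2 (r = 0.70, rho = 0.74), all below 0.05 by both measures after adjustment. The part of each cell type in this variation was not tested. Cfap69 had r = 0.02 with the ependymal markers. In the 9 mice outside wt_18m Cfap54 had r = 0.96 and rho = 0.88 with them (exact permutation test, n = 9, adjusted p = 0.00409 and 0.0228), and r = 0.99 without 2 mice.

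As a description of the values that chose Cfap54, a straight line was drawn through those 9 mice. Its slope was 0.74 log2 units of Cfap54 per unit of the marker mean, and the 9 mice lay within -0.17 to 0.07 of it. The marker mean of the 9 mice ran from -0.47 to 0.44, and mice wt_18m_12 (0.83) and wt_18m_9 (-0.51) lay outside that range. The line, extended for both, gave 4.68, 5.67 and 4.76 for mice 9, 12 and 17 of wt_18m. Their Cfap54 signals were above it by 2.54, 1.69 and 1.69. Mouse wt_18m_9 had the lowest ependymal marker mean of all 12 mice (-0.51) and the lowest Ccdc153 (5.27), and its Cfap54 signal was 7.22. With the ependymal marker mean as a covariate, an alternative chosen after seeing the data, the wild-type age difference of Cfap54 was 2.03, and with the choroid plexus mean it was 1.83. Both are descriptions with no test, and the part of either cell type in the wt_18m values was not tested.

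**Figure D3:**
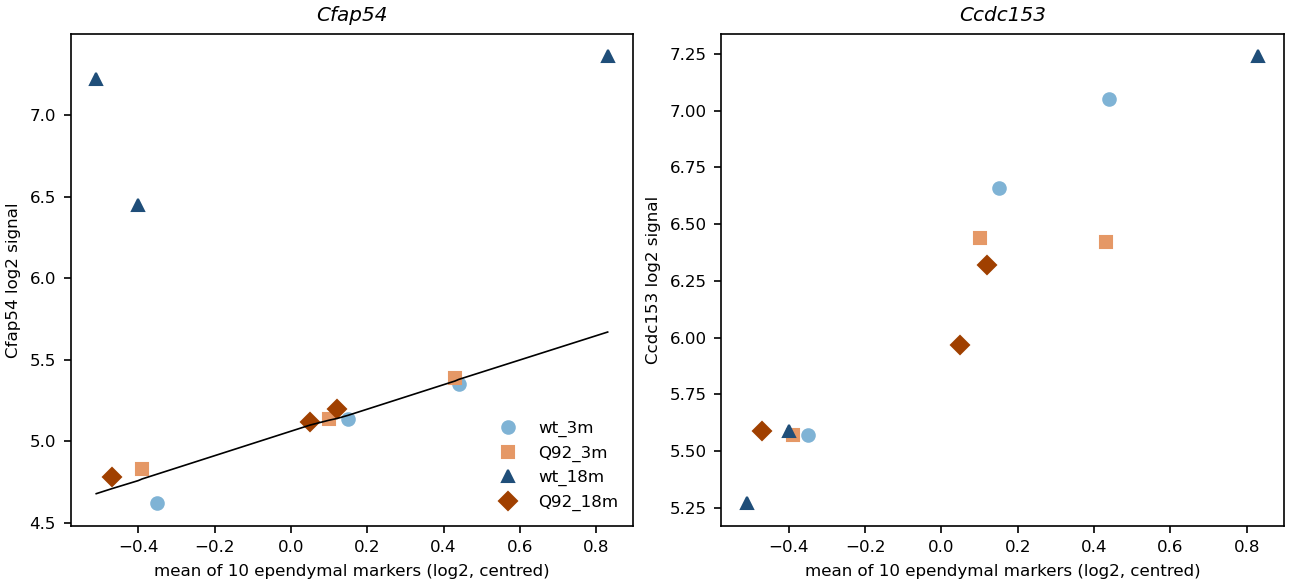
Log2 signal of Cfap54 (left) and Ccdc153 (right) against the mean of 10 ependymal markers, as log2 distance from the 12-mouse average, with 1 symbol per mouse and the group by shape and colour. The line is fitted to the 9 mice outside wt_18m and is extended beyond their range for mice wt_18m_9 and wt_18m_12. For Cfap54 the wt_18m mice lie 1.69 to 2.54 above the line, and for Ccdc153 mouse wt_18m_12 is the highest and wt_18m_9 the lowest of the 12.

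**Figure D4:**
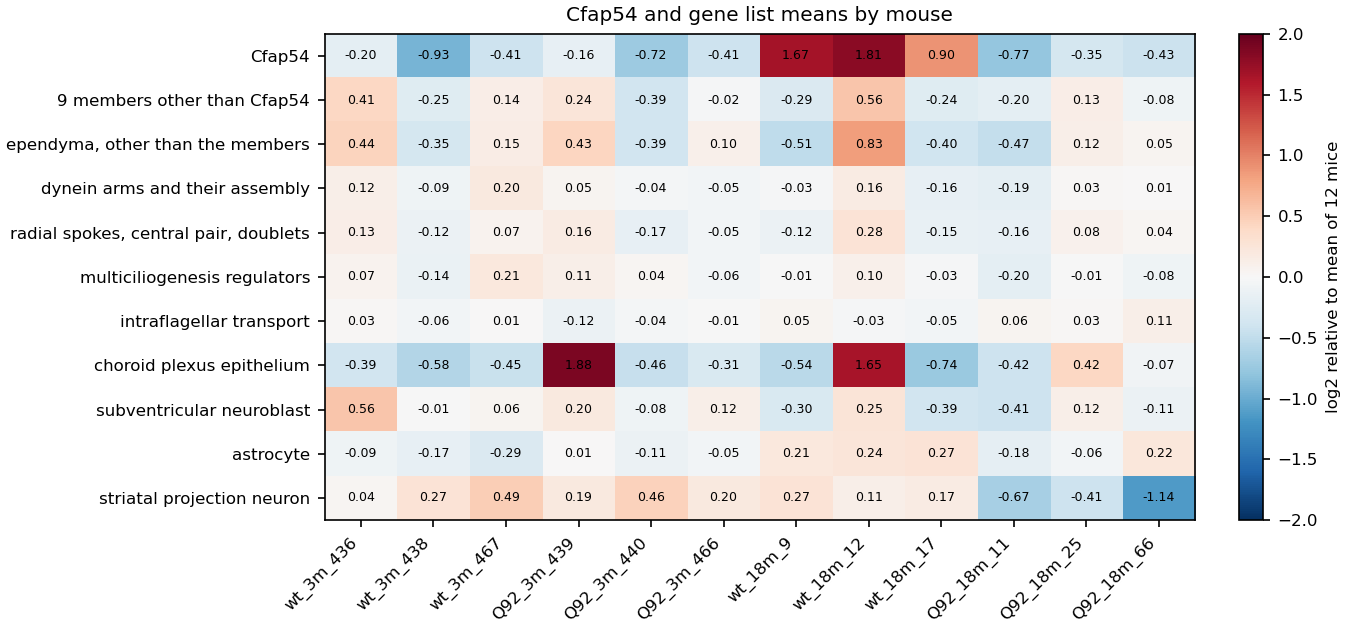
Log2 signal of Cfap54 and mean of each gene list, relative to the average of the 12 mice, by mouse (columns). Red is above and blue below that average, on a scale that ends at -2.0 and 2.0. Cfap54 is above it in the 3 wt_18m mice alone, while the other 9 members and the ependymal markers are highest in mouse wt_18m_12 and the other wt_18m mice are among the lowest 4.

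The members were left out when genes were ranked by how like Cfap54 their values ran. The first 8 held none of the 90 further cilia genes. Those 90 are few among 18193 genes, so this is not read as a result. The ranking used Pearson r over the 12 mice, which the wt_18m values that chose Cfap54 dominate, so it is a description and supports nothing. The 8 were Cst3 (0.960), Csdc2 (0.921), Suclg2 (0.916), Ntn4 (0.914), Sh2b3 (0.909), Cd84 (0.906), Nrsn2 (0.881) and Hey2 (0.877). Cst3, which encodes the protease inhibitor cystatin C, read 12.59, 12.72 and 12.49 in wt_18m and 12.23 to 12.36 in the other 9 mice. Its wild-type age difference was 0.33 (SE 0.08), and those of the other 7 ran from 0.27 to 0.58. These differences use the wt_18m values that ranked the genes, so they carry no test. A ranking against the mean of the other 9 members was made in the same way. That mean is made of cilia genes, so cilia genes near it are a description too. The 8 genes nearest to it were led by Dnali1 (0.950), an axonemal dynein light chain, and Cfap52 (0.945), a cilia and flagella protein. Next came Tmem212 (0.932), an ependymal marker, and Lrrc23 (0.918), a radial spoke protein. The rest were Ppp1r32 (0.918), 1700007K13Rik (0.917), 1700003E16Rik (0.908) and Dlx2 (0.908), a homeobox gene of subventricular neuroblasts. Dnali1 had a wild-type age difference of -0.05 and Cfap52 one of -0.11, with adjusted p of 0.968 and 0.894.

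Of the 10 measured genes nearest to Cfap54 on chromosome 10, Rmst and Slc25a3 also set wt_18m apart, in the other direction. The probe set paired with Mir1931 did so in mice 9 and 12 alone. Groups without overlap were common, at 18.6% of all genes between the wild-type ages and 14.0% between genotypes at 18 months. The 5 measured genes on each side were, in order, Ikbip, Slc25a3, Tmpo, Rmst and Nedd1 before Cfap54 and Cdk17, the probe set paired with Mir1931, Elk3, Gm32688 and Lta4h after it. Rmst, a long noncoding RNA of the nervous system, read 3.43, 3.73 and 4.93 in mice 9, 12 and 17 of wt_18m and 5.21 to 6.20 in the other 9 mice. Slc25a3 read 11.79, 11.67 and 11.68 in wt_18m and 11.90 to 12.11 in the other 9 mice. The probe set paired with Mir1931, a locus inside Cdk17, read 3.61, 3.35 and 7.19 in wt_18m, 7.96 to 8.24 in wt_3m, 8.19 to 8.49 in Q92_3m and 7.12 to 8.08 in Q92_18m. It reads array probes and not the mature miRNA. For Rmst and the Mir1931 probe set, mice wt_18m_9 and wt_18m_12 stood far from the other groups and wt_18m_17 stood near them. In Cfap54 as well wt_18m_17 was the nearest of the 3 to the other groups.

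The wild-type age differences were -1.58 for Rmst (SE 0.35, limma adjusted p = 0.182) and -3.43 for the Mir1931 probe set (SE 0.73, adjusted p = 0.164), and neither passed with all mice. Without mouse wt_18m_17 they were -2.03 for Rmst (limma adjusted p = 0.0438) and -4.67 for Mir1931 (adjusted p = 1.58e-05). For each, that was the 1 pass in 12 leave-outs, with adjusted p up to 0.364 for Rmst and 0.318 for Mir1931. The mouse left out is the wt_18m mouse nearest the other groups by these same values, so the 2 passes support nothing. The mean of all Rmst probe sets differed by -0.84, and adjusted p for Rmst ran from 0.0438 to 0.364 over 23 settings. Cdk17, a cyclin-dependent kinase gene, read 10.33, 10.36 and 10.27 in wt_18m and differed by -0.21 (SE 0.15, adjusted p = 0.641). Elk3, an ETS transcription factor, was the 1 neighbour of 10 to pass, higher at 18 months by 0.88 (SE 0.10, adjusted p = 0.0223), with 3.73, 3.97 and 3.79 in wt_3m and 4.54, 4.72 and 4.86 in wt_18m. In that contrast 0.0715% of all genes passed. The level of Elk3 was not particular to wt_18m, since Q92_18m read 4.61, 4.51 and 4.43. Q92_3m read 4.27, 4.27 and 4.40, all above wt_3m, and the age difference in Q92 was 0.21 (SE 0.10, limma adjusted p = 0.523). The call of Elk3 was kept in 16 of 23 alternative settings. The mean of all Elk3 probe sets differed by 0.19 (limma adjusted p = 0.443). Of 12 settings that left out 1 mouse, 8 kept the call. It was lost without wt_3m_436, wt_3m_467, Q92_3m_440 or wt_18m_12 (adjusted p over all leave-outs 0.0105 to 0.0829). The other 6 neighbours differed by -0.29 (Slc25a3) to 0.26 (Ikbip), and none passed (lowest adjusted p 0.277). Ntn4, a secreted netrin and 1 of the genes most like Cfap54, lies on the same chromosome with 10 measured genes between, and read 5.64, 5.96 and 5.35 in wt_18m and 4.96 to 5.24 elsewhere. What links these readings was not tested.

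**Figure D5:**
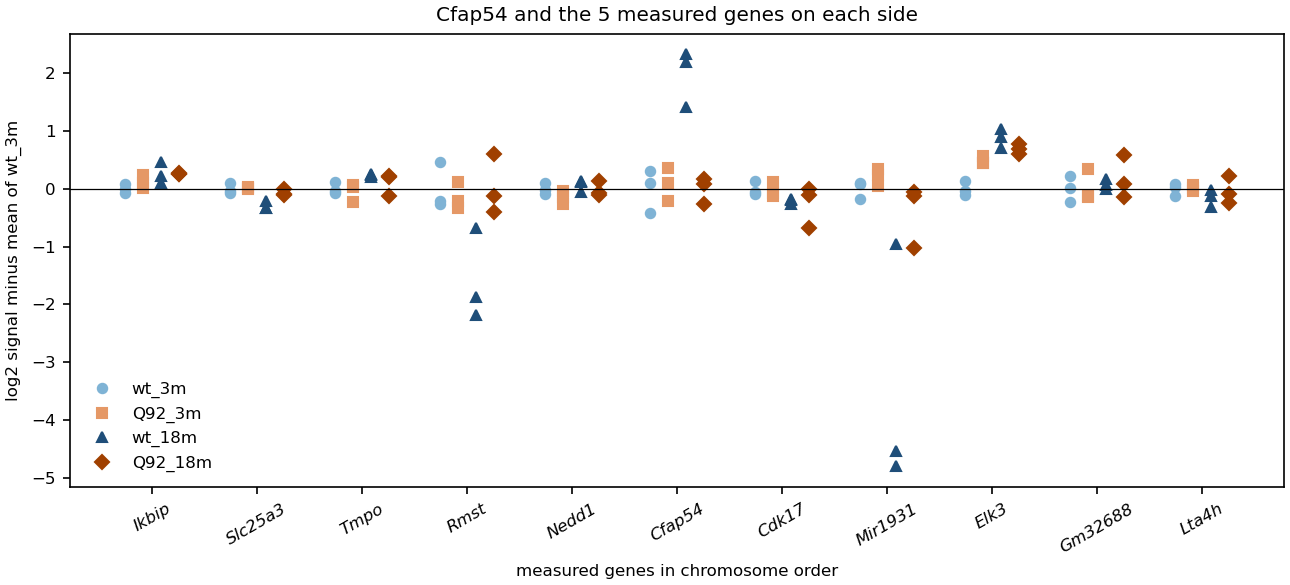
Log2 signal minus the wt_3m mean for Cfap54 and the 5 measured genes on each side of it, in chromosome order (horizontal axis), with 1 symbol per mouse and the group by shape and colour. In wt_18m Cfap54 lies above the other groups, Rmst and the probe set paired with Mir1931 lie below them in mice 9 and 12, and the remaining neighbours stay near or within 1 log2 unit.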

How the data were processed

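Total striatal RNA was labelled with biotin and hybridised to 1 array per mouse. The authors deposited log2 signals. RMA and the affy package are named, with no version, in the submitters' processing notes. RMA sets arrays to a common distribution, so differences are relative to the other genes. No source used here says if all arrays were normalised in 1 run. Values ran from 2.03 to 13.78 and array medians from 4.96 to 5.01. Brightness, not depth, limits dim probe sets.

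A single limma 3.58.1 fit (R 4.3.3) with 4 group means took the values of 45037 probe sets, without 64 control probe sets. Benjamini-Hochberg adjustment covered every probe set of a contrast, with a threshold of 0.05. The scripts were tested on simulated data. Names came from the array annotation (34945 probe sets with 1 gene, 932 with several, 9160 unnamed), and 34741 were found in RefSeq, with 0 symbols changed. A gene was read at its brightest probe set. Correlations used 100000 permutations, or all orders for 9 mice.

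The members, marker lists and pathway lists were chosen with earlier results of these data known. The genes named were all members, the 3 of each pathway list with the largest wild-type age difference, the 8 most like Cfap54 and most like the other members, the 5 neighbours on each side, and Dynlrb1. Cfap54 was chosen by its wt_18m values and has no test against that group. Alternatives were quantile normalisation, a common median, leaving out dim probe sets, a trended robust prior, array weights, covariates for sex and choroid plexus markers, only the arrays compared, 1 probe set or the mean of all per gene, and leaving out each mouse. An ependymal marker covariate was added after the data had been seen.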

Additional observations from a re-analysis of the deposited data

How the results depend on the processing

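Over 23 alternative settings and 1130 values of member differences, 1120 kept their side of the threshold, 0 reversed, and the other 10 were all of Cfap54. The counts of members below the threshold that follow concern Cfap54 alone, which its wt_18m values chose, so they are descriptions of the settings and no test result. In the wild-type age contrast the count was 1. It was 0 with sex as a covariate and 0 with only the arrays compared, and 0 to 1 without 1 mouse (0 without wt_3m_436, wt_3m_438, wt_3m_467, Q92_3m_440, Q92_3m_466 or wt_18m_12). For Q92 against wild type at 18 months it was 1, and 0 with only the arrays compared, and 0 to 1 without 1 mouse (0 without wt_18m_9). Those settings leave fewer samples or residual degrees of freedom, and for sex the cause was not tested. The log2 difference of Cfap54 itself ran from 1.77 to 2.25 in the first and from -2.26 to -1.81 in the second when 1 mouse was left out. In the other 3 comparisons the count stayed at 0 without any 1 mouse. The median difference of the other 9 members, leaving out 1 mouse, ran from -0.22 to 0.05 in the wild-type age contrast (-0.22 without wt_18m_12), -0.25 to 0.08 for genotype at 18 months, -0.31 to 0.05 at 3 months, -0.22 to 0.09 with age in Q92 and -0.07 to 0.21 for the change of the genotype difference. Of values that did not pass, 113 changed sign, the largest of them 0.33 in size, so no direction is read for them. Spag16 and Spef2 are dim and drop out when dim probe sets are left out. No paired analysis was possible because the groups share no replicate numbers.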
